A study of Mus musculus with 42 samples.

Results

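Gdpd3 and 1700020D05Rik were selected on measured values, because their levels were high in diabetic KK/Ay mice and low in healthy C57BL/6 mice in both tissues of the series. They are 2 of the 21186 genes with a symbol on the array, and each is read by 1 of its 41174 probes, taken by the gene name that the scanner output gives. Ranked by the rise from healthy to diabetic mice among the 263 genes that passed the adjusted threshold, were higher in diabetic mice and did not overlap in either tissue, Gdpd3 stood at rank 1 and 1700020D05Rik at rank 5. The difference between KK/Ay and healthy mice is therefore the reason for their choice, and it is described here without a test. The choice did not compare KK/Ay groups with each other, nor the tissues, but it did use the values of the diabetic and healthy arrays. Comparisons below that include those arrays are therefore not independent of it. Comparisons of treated KK/Ay groups with their untreated model do not include them.

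GDPD3, also called GDE7, belongs to the glycerophosphodiester phosphodiesterases. It acts as a lysophospholipase D: it cleaves the head group from lysophospholipids and so makes lysophosphatidic acid, a lipid that signals through receptors on the cell surface, and it can release N-acylethanolamines from their lysophospholipid precursors. For 1700020D05Rik, a protein-coding gene still named after a RIKEN cDNA, RefSeq gives the synonym mage-g2, and no function is stated here.

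RNA of aorta and of skeletal muscle was measured on 42 single-colour arrays, 3 mice per group in each tissue. The mice were male and 18 to 20 weeks old, and all were gavaged for 8 weeks, the groups without a drug with saline. The healthy group (G) was C57BL/6 and received saline, and the diabetic group (A) was KK/Ay and received saline. The macroangiopathy group (C) was KK/Ay kept on a high-fat diet with L-NAME, which blocks the synthesis of nitric oxide, for 8 weeks and then given saline, and 4 groups of the same model received SHENQI compound (B), a Chinese herbal compound, its yangyinyiqi part (D), its huoxue part (E) or rosiglitazone (F), an agonist of PPAR gamma. All KK/Ay mice carry a yellow agouti allele and become obese and diabetic, so strain, that allele and diabetes cannot be told apart in any comparison with the healthy group. The high-fat diet and L-NAME are likewise shared by groups B to F. The labels do not tie an aorta to a muscle of the same mouse, and the fits took all arrays as independent. The paper describes tissue from 3 mice per group, so an aorta and a muscle may come from the same mouse. Fits of both tissues may then count a mouse more than once. Their p-values measure the spread between these samples, not between mice.

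The probe sequences are shown because every value below is the brightness of these 2 oligonucleotides of 60 bases, printed 5′ to 3′ as the scanner output gives them.
Gdpd3 probe: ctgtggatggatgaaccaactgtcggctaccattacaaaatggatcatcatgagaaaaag
1700020D05Rik probe: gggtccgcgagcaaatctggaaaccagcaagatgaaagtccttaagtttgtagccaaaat
By the coordinates in the files (mm9), the Gdpd3 probe covers chr7:133914520-133914693 on the plus strand, a span of 174 bases for 60 bases of probe, so its target is interrupted in the genome. The 1700020D05Rik probe lies in 1 piece at chr19:5502973-5503032 on the minus strand.

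The RefSeq start-site windows of the 2 genes (GRCm38.p6, 250 bases before to 50 after the start) are shown because both genes were high in the same mice, with each CG pair in capitals.
Gdpd3, chr7:126766164-126766463, plus strand: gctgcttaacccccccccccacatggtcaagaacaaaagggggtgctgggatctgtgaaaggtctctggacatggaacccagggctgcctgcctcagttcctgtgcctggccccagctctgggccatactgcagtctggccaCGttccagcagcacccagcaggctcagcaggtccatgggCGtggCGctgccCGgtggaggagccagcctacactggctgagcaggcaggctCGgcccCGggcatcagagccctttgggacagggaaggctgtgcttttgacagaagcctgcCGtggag
1700020D05Rik, chr19:5503738-5504037, minus strand: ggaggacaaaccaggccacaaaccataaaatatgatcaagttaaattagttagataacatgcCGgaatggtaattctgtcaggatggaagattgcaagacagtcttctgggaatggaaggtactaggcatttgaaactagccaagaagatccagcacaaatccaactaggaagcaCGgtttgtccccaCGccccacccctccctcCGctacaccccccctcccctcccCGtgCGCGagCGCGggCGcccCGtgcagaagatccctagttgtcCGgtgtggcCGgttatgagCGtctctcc
The Gdpd3 window has 7 CG pairs, equal to the median of 7 over 32851 windows of the same length, and its GC content of 64.3% exceeds the median of 52.7%. The 1700020D05Rik window has 14 CG pairs at a GC content of 53.7%. Neither window holds, on either strand, the TATA box letters TATAAA, found in 13.6% of all windows, the box CCAAT, found in 37.4% of them, the GC box GGGCGG, found in 35.7%, or the E-box CACGTG, found in 7.15%. No sequence of KK/Ay mice was analysed here.

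Between 49.1% and 73.5% of probes per array were well above background. Both probes were well above background on all 42 arrays, the healthy ones included, and none of their spots was saturated or marked as irregular. The nonagouti gene a, which the yellow allele switches on in tissues that normally lack it, lay between 8.77 and 10.15 (normalized log2 intensity) on all 36 KK/Ay arrays and between 5.30 and 5.56 on the 6 healthy ones. Of the defining markers, all 5 of smooth muscle and all 5 of skeletal muscle were well above background in both tissues. The summed level of the skeletal muscle markers (log2) ranged from 19.26 to 19.66 in KK/Ay muscle but from 11.33 to 18.49 in KK/Ay aorta and from 12.24 to 16.17 in healthy aorta, so muscle marker RNA differed among the aorta samples. Smooth muscle markers ranged from 15.57 to 18.003 in KK/Ay aorta and from 12.98 to 16.69 in healthy aorta, and adipocyte markers from 15.88 to 18.29 and from 16.60 to 18.02. In skeletal muscle the smooth muscle markers ranged from 12.65 to 13.28 (KK/Ay) and from 11.93 to 13.63 (healthy). Healthy aorta replicate 1, at 12.98, lay within both of these ranges. Without it the difference between diabetic and healthy mice was 4.64 for Gdpd3 and 3.05 for 1700020D05Rik, with both tissues together. The difference between the tissues is given below also without the aortas highest in skeletal muscle markers, and the part of the other marker lists in the levels of the 2 genes was not tested. In whole tissue, more cells of a type and more RNA per cell cannot be told apart.

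Gdpd3 was near the lower end of the scale in healthy mice. Its normalized log2 intensity was 6.25, 6.97 and 6.40 in the 3 healthy aortas and 6.72, 6.46 and 7.29 in the 3 healthy muscles. The spots stood 29 to 146 scanner units above their local background there. In the diabetic group the level was 11.54, 11.68 and 11.44 in aorta and 11.36, 11.15 and 11.36 in muscle. The macroangiopathy group gave 11.69, 11.20 and 11.40 in aorta and 11.20, 11.39 and 11.40 in muscle. No KK/Ay array came near the healthy range: the lowest of the 36 was 10.31, and spots stood 1091.5 to 3649.5 units above background.

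Under treatment the levels of Gdpd3 stayed far above the healthy range. With SHENQI compound they were 11.24, 11.20 and 11.07 in aorta and 11.06, 10.31 and 11.16 in muscle, of which the 10.31 of replicate 2 was the lowest value of any KK/Ay array. With yangyinyiqi they were 11.41, 11.75 and 11.21 in aorta and 11.16, 11.26 and 11.30 in muscle. With huoxue the aortas gave 11.57, 11.52 and 10.37, and the last of them differed by -0.99 from the mean of the other 17 KK/Ay aortas, while the muscles lay closely together at 11.28, 11.32 and 11.43. With rosiglitazone the aortas gave 10.696, 11.30 and 11.22 and the muscles 11.54, 11.19 and 11.44.

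1700020D05Rik was also low in healthy mice, with spots 36 to 120 scanner units above background. Its levels there were 6.56, 7.32 and 7.02 in aorta and 6.59, 7.14 and 7.09 in muscle. So near the background, these similar levels do not show that the tissues were equal. In KK/Ay mice the level depended on the tissue. Diabetic aortas gave 9.002, 9.51 and 9.47 and diabetic muscles 10.91, 10.24 and 10.96. Macroangiopathy aortas gave 9.0003, 9.11 and 9.35 and macroangiopathy muscles 10.96, 10.78 and 10.42. In both groups every muscle was above every aorta.

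The same held for 3 of the 4 treatments. Yangyinyiqi aortas gave 8.76, 8.90 and 8.90 and muscles 10.21, 11.08 and 10.30. Huoxue aortas gave 9.86, 9.49 and 8.71 and muscles 10.36, 10.65 and 10.41. Rosiglitazone aortas gave 9.52, 9.24 and 9.23 and muscles 10.36, 10.76 and 10.91. In the SHENQI group the aortas gave 8.82, 8.82 and 9.32, and the muscles 10.84, 7.55 and 10.68, so that 1 muscle lay below all aortas of KK/Ay mice.

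**Figure D1:**
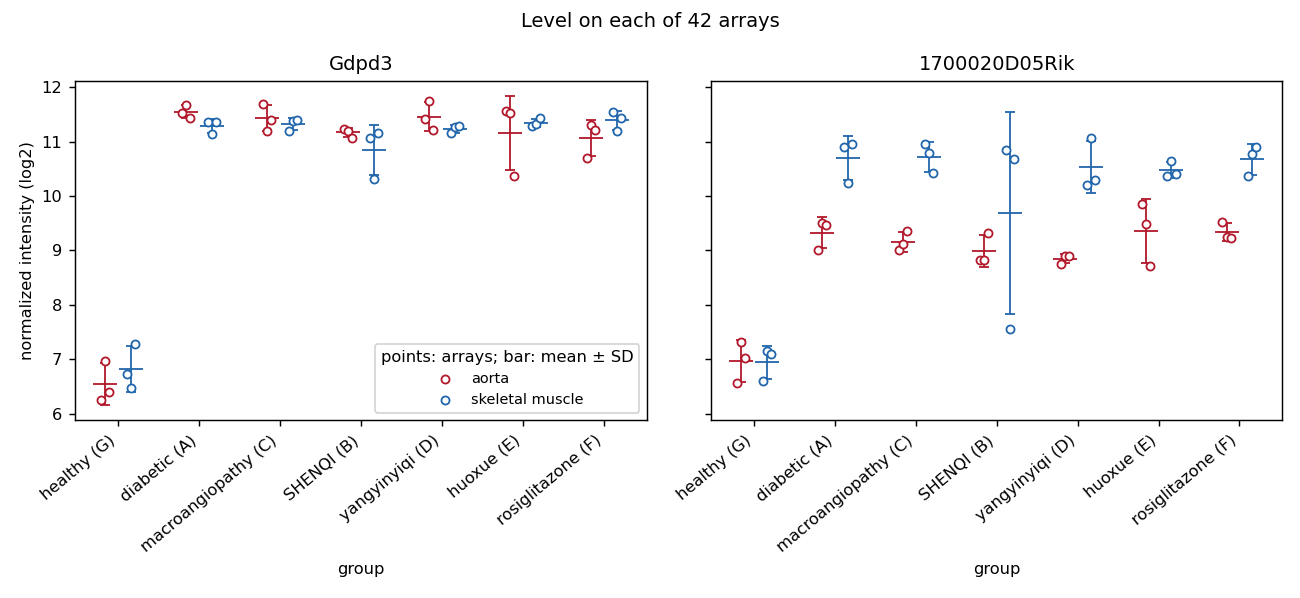
Normalized log2 intensity of Gdpd3 (left) and 1700020D05Rik (right) on each array by group, aorta in red and skeletal muscle in blue, with the mean and SD of 3 arrays. All KK/Ay arrays lie above the healthy ones, from 10.31 for Gdpd3 and from 7.55 for 1700020D05Rik, and the latter separates the tissues in KK/Ay mice except for 1 SHENQI muscle.

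Ordered by their means, the KK/Ay groups overlapped with their neighbours in the order, apart from 1 pair. For Gdpd3 in aorta the order ran from diabetic (11.55 ± 0.12, SD, n = 3) through yangyinyiqi, macroangiopathy, SHENQI and huoxue to rosiglitazone (11.07 ± 0.33), and the ranges of all neighbours in it overlapped. In muscle it ran from rosiglitazone (11.39 ± 0.18) through huoxue, macroangiopathy, diabetic and yangyinyiqi (11.24 ± 0.07) to SHENQI (10.84 ± 0.46), and the ranges of the last pair met at 11.16 without overlap. For 1700020D05Rik in aorta the order was huoxue (9.35 ± 0.59), rosiglitazone, diabetic, macroangiopathy, SHENQI and yangyinyiqi (8.85 ± 0.08). In muscle it was macroangiopathy (10.72 ± 0.27), diabetic, rosiglitazone, yangyinyiqi, huoxue (10.47 ± 0.15) and SHENQI (9.69 ± 1.85), with overlap at each step of both orders. Groups further apart in an order did not always overlap. The diabetic aortas lay from 11.44 to 11.68 for Gdpd3, above all SHENQI and all rosiglitazone aortas, and the yangyinyiqi aortas from 8.76 to 8.90 for 1700020D05Rik, below all macroangiopathy, diabetic and rosiglitazone aortas. These are examples from many pairs of groups of 3 arrays. The share of all genes without overlap in such pairs was not counted, so nothing is read from these separations. Healthy mice came last in each of the 4 orders and overlapped with no group.

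As a description, Gdpd3 was 5.01 higher on the log2 scale in diabetic than in healthy aorta, a ratio of 32.2, and 4.46 higher in muscle, a ratio of 22.1. Over the 6 KK/Ay groups the difference ranged from 4.53 to 5.01 in aorta and from 4.02 to 4.57 in muscle. 1700020D05Rik was 2.36 higher in diabetic than in healthy aorta, a ratio of 5.14, and 3.76 higher in muscle, a ratio of 13.5, and over the 6 groups it ranged from 1.88 to 2.38 in aorta and from 2.75 to 3.78 in muscle. In the same fit across all genes 4.5% of the 14808 genes tested in diabetic against healthy mice had an adjusted p below 0.05 and 22.1% an unadjusted P below 0.05, and 30.1% of 16176 genes passed after adjustment when the mean of the 6 KK/Ay groups was set against healthy mice.

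The size of these differences depended on the processing. With both tissues together, the difference between diabetic and healthy mice was 4.74 for Gdpd3 and 3.06 for 1700020D05Rik. It was 4.08 for Gdpd3 with an offset of 50 added after background correction, which compresses dim spots, and 5.97 in the value table of the authors, where 1700020D05Rik differed by 3.98 and both correction and scaling are others. On slides that held healthy and KK/Ay arrays of 1 tissue, the differences had the same direction. The healthy and diabetic arrays among them were used to choose the genes, so these values are a description and no check on the slides. For Gdpd3 the diabetic aorta of slide 1 was 5.21 above the healthy aortas beside it, SHENQI aortas were 4.91 and 4.16 above on slides 1 and 2, and rosiglitazone muscles 4.72 above on slide 3. The same 4 differences were 2.21, 2.03, 1.75 and 3.97 for 1700020D05Rik.

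The muscle sample of SHENQI replicate 2 stood apart in 1700020D05Rik. At 7.55 it lay 0.41 above the highest healthy muscle and 2.65 below the next KK/Ay muscle, where the other 17 ranged from 10.21 to 11.08. Its spot stood above background by an amount within the range of healthy muscle, 36 to 120 scanner units. Among 16175 genes this was the largest drop of that array from the mean of the other 17 KK/Ay muscles (difference -3.08), and Gdpd3 came at rank 59 (difference -0.98). The sample was not healthy-like in every gene. Its gene a level of 9.48 lay in the KK/Ay range of 8.87 to 10.15, and its Gdpd3 stayed 3.02 above the highest healthy muscle. Its mean correlation with the other KK/Ay muscles over all genes was 0.985, rank 11 from the lowest of 18. That value was not compared with a correlation with healthy muscles, so it does not place the sample between the strains. Pttg1, the securin that restrains the separation of sister chromatids, was 12.97 in this sample, against 8.37 to 8.91 in the other KK/Ay muscles and 12.89 to 13.82 in healthy ones, and it was chosen for mention after its values were seen. The arrays of the SHENQI aortas, replicate 2 included, showed no such drop of 1700020D05Rik.

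**Figure D2:**
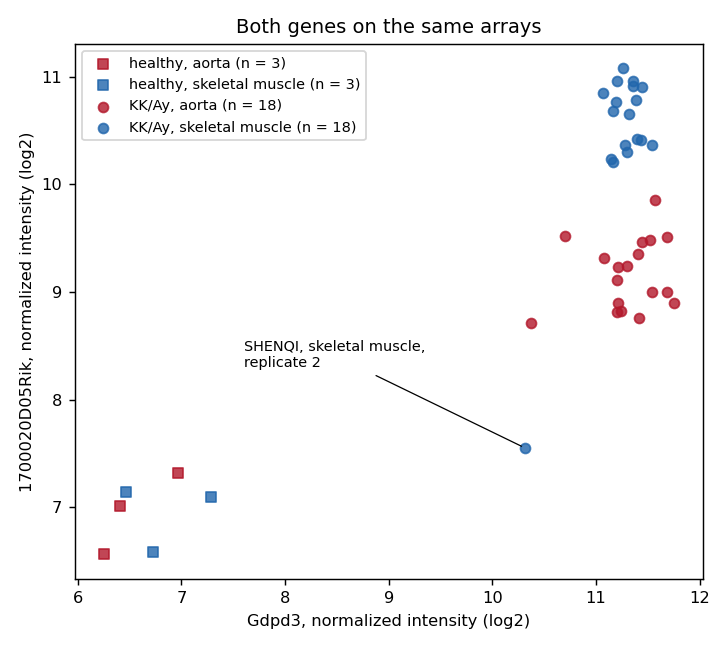
Normalized log2 intensity of 1700020D05Rik against Gdpd3 on the 42 arrays, with healthy arrays as squares and KK/Ay arrays as circles, aorta in red and skeletal muscle in blue. KK/Ay arrays share 1 range of Gdpd3 from 10.31 to 11.75 and fall into a lower aorta and an upper muscle range of 1700020D05Rik, while the muscle of SHENQI replicate 2 sits at 10.31 and 7.55.

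Whether the macroangiopathy model or a treatment moved either gene was asked within KK/Ay mice, with both tissues in a limma fit. Neither gene passed in any of the 5 comparisons. The macroangiopathy group differed from the diabetic group by -0.04 for Gdpd3 (95% interval -0.24 to 0.17, adjusted p = 0.987) and by -0.08 for 1700020D05Rik (-0.41 to 0.25, adjusted p = 0.986). For Gdpd3 this interval covers ratios from 0.844 to 1.12. The diabetic arrays were also used to choose the genes, so this comparison is not independent of the choice. Across all genes 0% of 15722 passed after adjustment and 5.12% without it.

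With both tissues together, SHENQI compound gave the lowest Gdpd3 mean of the 4 treatments relative to the model, a difference of -0.37 (95% interval -0.69 to -0.06, unadjusted P = 0.0242, adjusted p = 0.9997). It was -0.26 in aorta, where huoxue (-0.28) and rosiglitazone (-0.36) lay lower, and -0.48 in muscle, and -0.24 without the muscle of SHENQI replicate 2, a change by more than 1.5 times. On the slide that held muscles of both groups the difference was -0.56 with that sample and -0.14 without it, where 1 SHENQI muscle was left. 1700020D05Rik differed by -0.60 (-1.64 to 0.44, adjusted p = 0.9997), and this rested on the same sample: without it the difference was -0.08. Across all genes 0% of 15663 passed after adjustment and 2.71% without it.

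Yangyinyiqi differed from the model by -0.03 for Gdpd3 (-0.26 to 0.20) and by -0.25 for 1700020D05Rik (-0.57 to 0.07), both with an adjusted p of 0.999. On the slides shared by both groups the differences of 1700020D05Rik were -0.40 in aorta and 0.11 in muscle. Across all genes 0% of 15893 passed after adjustment and 3.41% without it. Huoxue differed by -0.13 for Gdpd3 (-0.54 to 0.28, adjusted p = 0.801) and by -0.02 for 1700020D05Rik (-0.43 to 0.38, adjusted p = 0.966). Without the huoxue aorta of replicate 3 these turned to 0.06 and 0.09. Of 15726 genes 0% passed after adjustment and 14.3% without it.

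Rosiglitazone differed from the model by -0.15 for Gdpd3 (-0.45 to 0.15, adjusted p = 0.714) and by 0.07 for 1700020D05Rik (-0.21 to 0.34, adjusted p = 0.884). Without its aorta of replicate 1 the Gdpd3 difference was -0.04. In this comparison 0.00631% of 15843 genes passed after adjustment, which is 1 gene, and 12% without it. No slide held rosiglitazone or huoxue arrays beside macroangiopathy arrays of the same tissue, nor diabetic beside macroangiopathy arrays, so slide and group cannot be told apart there beyond a random slide term, with which no difference passed.

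**Figure D3:**
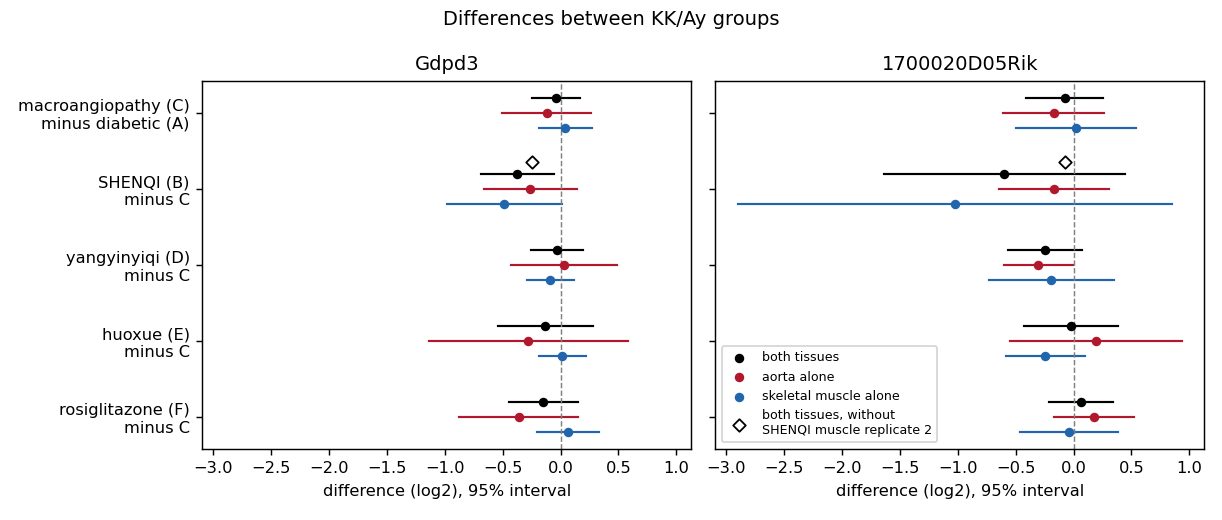
Differences between KK/Ay groups in log2 intensity with 95% intervals from limma, for both tissues (black), aorta alone (red) and skeletal muscle alone (blue), and open diamonds for SHENQI minus macroangiopathy without the muscle of SHENQI replicate 2. Apart from SHENQI against macroangiopathy for Gdpd3 and yangyinyiqi against macroangiopathy in aorta alone for 1700020D05Rik, all intervals include 0, and no difference passed after adjustment.

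A test of any difference among the 6 KK/Ay groups gave an adjusted p of 0.739 for Gdpd3 (unadjusted P = 0.187) and of 0.834 for 1700020D05Rik (unadjusted P = 0.295), where 0.279% of 16115 genes passed after adjustment and 10% without it. It includes the diabetic arrays that were used to choose the genes. None of the 10 tests of whether a group difference depended on the tissue passed for the 2 genes. The largest such difference, 0.86 for 1700020D05Rik under SHENQI compound, had a 95% interval from -1.27 to 2.99. On simulated arrays the fit for SHENQI compound called 16.5% of true log2 differences of 1 and 66.3% of differences of 2. A missed call therefore says little here, and the share of all genes that passed these tests was not recorded. A p that misses the threshold does not show that the groups were equal. For 1700020D05Rik under SHENQI compound the interval left room for a level between 0.321 and 1.36 times that of the model.

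The tissues were compared within each strain. In KK/Ay mice 1700020D05Rik was lower in aorta than in muscle (log2 difference -1.30, SE 0.19, 95% interval -1.68 to -0.92, limma adjusted p = 2.2e-07). Without the muscle of SHENQI replicate 2 the difference was -1.47 (adjusted p = 3.2e-14). The ranges were 8.71 to 9.86 in 18 aortas and 10.21 to 11.08 in the other 17 muscles, with no overlap. Many genes separate these tissues, and 78.3% of 16115 passed in this comparison. In healthy mice the difference was 0.02 (SE 0.28, 95% interval -0.64 to 0.68, adjusted p = 0.972), where 8.88% of 14131 genes passed on 6 arrays. The healthy spots stood only 36 to 120 scanner units above background. On simulated arrays this fit called 22.6% of true log2 differences of 1, so a tissue difference in healthy mice may have been missed. That the tissue difference itself differs between the strains was not tested, because the choice of the gene used those arrays. The healthy fit, and the KK/Ay fit through its diabetic arrays, are not independent of the choice either.

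Skeletal muscle RNA varied among the aortas. The 2 KK/Ay aortas with the highest summed level of muscle markers were diabetic replicate 2 (18.49) and rosiglitazone replicate 1 (17.36). They had 1700020D05Rik at 9.51 and 9.52. The aorta with the lowest, huoxue replicate 2 (11.33), had it at 9.49. The next lowest, diabetic replicate 1 and rosiglitazone replicate 2, had it at 9.002 and 9.24. In the 6 KK/Ay aortas with markers above 2 times the median it ranged from 8.71 to 9.86, and in the others from 8.76 to 9.49. Whether its level in aorta followed the muscle markers was not tested. Without the 6 aortas whose muscle markers exceeded 2 times the median the tissue difference was -1.36 (adjusted p = 6.6e-06). All KK/Ay aortas were on other slides and scan days than KK/Ay muscles, so tissue cannot be told apart from slide and scan day. With slide as a random term the difference was -1.28 (adjusted p = 4.3e-05).

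Gdpd3 did not pass in the comparison of tissues in KK/Ay mice, with aorta minus muscle at 0.07 (SE 0.10, 95% interval -0.13 to 0.26, adjusted p = 0.530). This call depended on the scaling: the difference was 0.23 with quantile normalization within each tissue (adjusted p = 0.028) and -0.40 with the processed signal scaled to its 75th percentile (adjusted p = 0.0015), the opposite direction. It moved to 0.02 without the muscle of SHENQI replicate 2, to 0.13 without the huoxue aorta of replicate 3 and to 0.15 without the 6 aortas with high muscle markers (adjusted p = 0.0906). In healthy mice it was -0.28 (SE 0.31, -1.01 to 0.45, adjusted p = 0.638).

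Differences of this size were not shared by the genes beside them in the genome. Within 250 kb of the Gdpd3 probe, 30 other genes are on the array, and of the 28 tested in diabetic against healthy mice 2 passed after adjustment, both lower (7.14%, against 4.5% of all genes). Slx1b, a subunit of a nuclease that resolves DNA junctions, fell by 1.26 (SE 0.16, adjusted p = 0.0010), and Tbx6, a T-box factor of mesoderm, fell by 0.67 (SE 0.14, adjusted p = 0.0220). Only 1 of these calls was left without diabetic aorta replicate 2, diabetic muscle replicate 1 or diabetic muscle replicate 3, and 0 in aorta alone. The genes next to Gdpd3 did not pass. Mapk3, the kinase ERK1, 5.6 kb away, differed by 0.29 (SE 0.20, adjusted p = 0.418), and Ypel3, 7.3 kb away on the other side, by 0.11 (SE 0.14, adjusted p = 0.665). With the mean of all KK/Ay groups 7 of 30 neighbours passed, 3 higher and 4 lower, or 23.3% against 30.1% of all genes, and their differences lay between -1.28 and 0.54, far from the 4.59 of Gdpd3.

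Around the 1700020D05Rik probe 32 other genes are on the array, and 0 of the 27 tested passed in diabetic against healthy mice with limma, while 9 had an unadjusted P below 0.05 (33.3%, against 22.1% of all genes). The nearest were Snx32, a sorting nexin 7.6 kb away, with a difference of 0.15 (SE 0.18, adjusted p = 0.659) and Cfl1, the actin-severing protein cofilin, 9.1 kb away, with -0.23 (SE 0.24, adjusted p = 0.592). With all KK/Ay groups 12 of 30 passed, 6 higher and 6 lower, or 40% against 30.1% of all genes. The largest were Ccdc85b (0.74), Tsga10ip (0.71), Efemp2 (0.64), a protein of elastic fibres, and Rnaseh2c (-0.44), a subunit of ribonuclease H2. Ccdc85b and Rnaseh2c differed in both tissues. The mean of Efemp2 was 12.26 in KK/Ay and 10.97 in healthy aorta, but 10.35 in the muscle of both. Tsga10ip was 7.67 and 6.18 in muscle, but 5.91 and 5.99 in aorta.

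**Figure D4:**
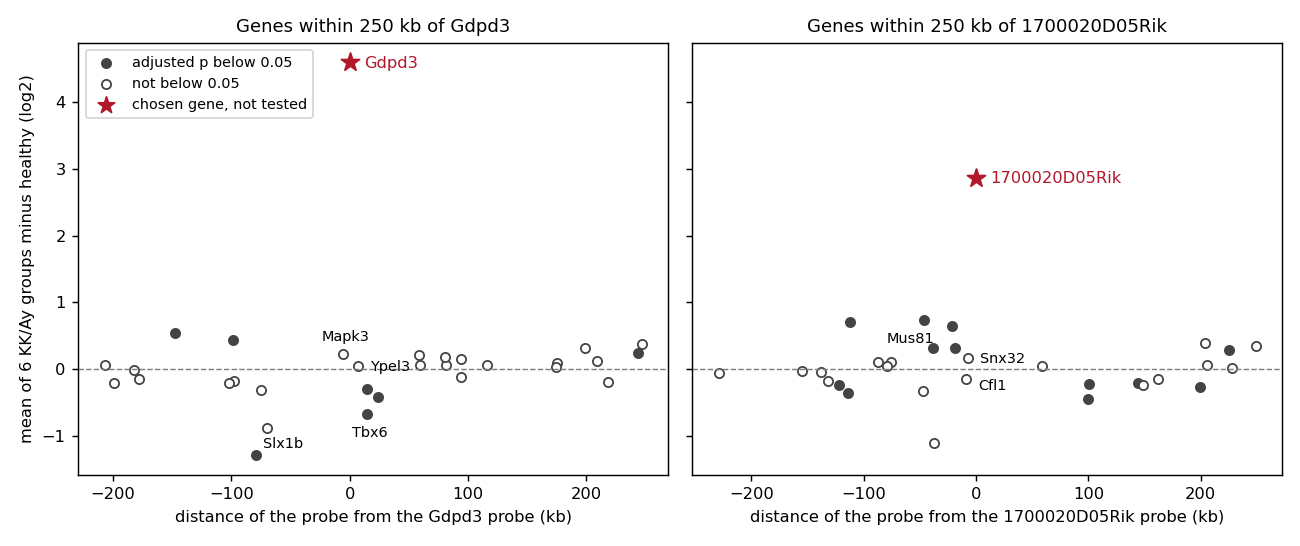
Difference between the mean of the 6 KK/Ay groups and healthy mice (log2) for genes whose probes lie within 250 kb of the Gdpd3 probe (left) or the 1700020D05Rik probe (right), by distance in kb. Filled points had an adjusted p below 0.05 and stars are the chosen genes, at 4.59 and 2.86, while neighbours lie between -1.28 and 0.74.

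The other enzymes of the family did not share the level of Gdpd3. Of the 6 other glycerophosphodiester phosphodiesterase genes listed, Gdpd2 and Gdpd4 were not well above background in any group, and of the 4 tested 0 passed in diabetic against healthy mice, by limma, where 4.5% of all genes did, and 1 had an unadjusted P below 0.05. The differences were -0.51 for Gde1 (adjusted p = 0.143), -0.46 for Gdpd1 (adjusted p = 0.257), -0.37 for Gpcpd1 and 0.37 for Gdpd5. With all KK/Ay groups against healthy mice 2 of the 4 passed, beside 30.1% of all genes. Gde1, which acts on glycerophosphoinositol, fell by 0.46 (adjusted p = 0.0136) and Gpcpd1, which cleaves glycerophosphocholine, fell by 0.31 (adjusted p = 0.0283). These values average the tissues. The mean of Gde1 was 10.23 in KK/Ay and 11.10 in healthy aorta, but 9.85 and 9.91 in muscle, while Gpcpd1 was lower in both tissues.

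Among 23 enzymes that make or break down lysophosphatidic acid, N-acylethanolamines and related lipids, 22 were tested in diabetic against healthy mice and 1 passed, Pld2, a phospholipase D (higher by 0.53, SE 0.13, adjusted p = 0.0455). The call was lost with slide or replicate number as a block and in 9 of the 12 fits without 1 array. It held in the other 3, without healthy aorta replicate 1 or 2 or diabetic aorta replicate 1. The count was 4.55% of those tested, against 4.5% of all genes, and the median difference was 0.11 against 0.03. With all KK/Ay groups 8 of 23 passed, or 34.8% against 30.1%. The 5 that were higher included Hrasls (0.73), a phospholipid acyltransferase, and Ppap2b (0.71), a phosphatase that degrades lysophosphatidic acid, beside Pld2 (0.43). The 3 that were lower included Lpcat3 (-0.76, adjusted p = 1.4e-06), which reacylates lysophospholipids. Its mean was 9.67 in KK/Ay and 10.97 in healthy aorta, but 9.91 and 10.13 in muscle. Ppap2b was 13.96 and 12.79 in aorta, but 13.72 and 13.46 in muscle. Hrasls and Pld2 were higher in both tissues. Enpp2, the secreted lysophospholipase D autotaxin, differed by 0.25 (adjusted p = 0.318).

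No receptor for lysophosphatidic acid or cannabinoids passed. Of 8 listed, 5 were tested in diabetic against healthy mice and 6 with all KK/Ay groups, and the differences lay between -0.20 and 0.16 and between -0.29 and 0.18. Lpar2 and Lpar3 were not well above background in any group. By limma 0 of the 5 had an unadjusted P below 0.05 in the first comparison, where 22.1% of all genes did, and 0 of the 6 passed after adjustment in the second, where 30.1% did. With so few genes, nothing is read from these counts.

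The genes with the pattern most like Gdpd3 over the 42 arrays, after removal of each tissue's mean, were a (Pearson r = 0.96), Pdxdc1 (0.94), Hp1bp3 (0.93), 2810408M09Rik (0.92) and Ccnb1ip1 (0.92), out of 16175 genes. The most opposite was Tomm22, an import receptor of the outer mitochondrial membrane, at -0.97. These correlations are descriptions that rest on the gap between 6 healthy and 36 KK/Ay arrays. Within the 36 KK/Ay arrays they were 0.12 for a, 0.23 for Pdxdc1, -0.13 for Hp1bp3, 0.30 for 2810408M09Rik, -0.01 for Ccnb1ip1 and -0.06 for Tomm22. Pdxdc1, for instance, was 8.80 in KK/Ay and 7.20 in healthy aorta, and Tomm22 9.68 and 11.54.

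For 1700020D05Rik the most like were Gdpd3 (0.88), Adat2, a tRNA adenosine deaminase (0.87), Cnot7, a deadenylase of messenger RNA (0.85), Adi1, an enzyme of methionine salvage (0.85), and a (0.85). The most opposite were Pttg1 (-0.95), Slc47a1, an organic cation exporter (-0.90), and Asrgl1, an asparaginase (-0.90). Within the 36 KK/Ay arrays the correlation was -0.80 for Pttg1, -0.78 for Slc47a1, -0.70 for Asrgl1 and 0.52 for Gdpd3, but this rested on the muscle of SHENQI replicate 2. Over the other 35 KK/Ay arrays it was -0.24 for Pttg1, -0.03 for Slc47a1, -0.18 for Asrgl1 and 0.15 for Gdpd3. Over the 36 and the 35 arrays it was 0.48 and 0.24 for Adat2, 0.545 and 0.345 for Cnot7, 0.18 and 0.32 for Adi1, and 0.01 and -0.03 for a. In the muscle of SHENQI replicate 2, Slc47a1 was 8.98 and Asrgl1 11.35, where the KK/Ay muscles averaged 6.41 and 10.24 and healthy muscles 9.24 and 11.40. Of these genes Asrgl1 is on chromosome 19 as 1700020D05Rik is, and Pttg1 and Slc47a1 are on chromosome 11.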

How the data were processed

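RNA of aorta and skeletal muscle was hybridised by the authors to 42 one-colour Agilent arrays of 45018 spots, of which 1639 were controls. The deposited scanner output, read with Feature Extraction 10.7.3.1 (version 10.7 in the submitters' processing notes), gives the intensity of each spot and of its local background before correction, the processed signal, and marks for spots well above background. A second table deposited by the authors holds log2 values, and its 42 columns share a median of 5.36. Its scaling is not stated beyond that, its direction is that of the intensity (correlation of at least 0.989 with the log2 processed signal on each array), and no gene centring was seen. Groups were taken from the sample labels.

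Intensities were corrected with normexp in limma 3.58.1 (R 4.3.3, offset 0, median intensities, all spots), put on the log2 scale without control spots and quantile normalized over all arrays. Irregular spots were then left out, and spots of a probe and probes of a symbol were averaged. Genes entered a test if any compared set of 3 arrays had a probe marked well above background on each of them. Each comparison was a limma fit of its arrays with tissue as a term, with Benjamini-Hochberg adjustment over all genes tested, a threshold of 0.05 and statmod 1.5.0 for block terms. Comparisons of KK/Ay with healthy mice were not tested for the 2 chosen genes.

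The genes and the lists were chosen with earlier results of these data known. Named genes were the 2 genes, gene a as a check, the 5 most alike genes of each by Pearson correlation, listed genes and neighbours within 250 kb that passed both against healthy mice in group A and in the mean of the KK/Ay groups, and at most 4 examples of other lists in order of size. The most opposite genes, and neighbours named because they lie nearest, were added after the values were seen. Enpp2 was named outside the order of size. Lists covered the phosphodiesterase family, enzymes and receptors of lysophosphatidic acid and N-acylethanolamines, and markers of smooth and skeletal muscle, adipocytes, brown fat, macrophages, endothelium and epithelium. Of the last 7 marker lists, 1 gene passed in group A against healthy mice, the adipocyte hormone Lep, where 4.5% of all genes did. The 5 adipocyte markers had a median difference of -0.22, so nothing is read from this call about adipocytes. The fits were tested on simulated data. Promoter windows and synonyms are from RefSeq (GRCm38.p6), and probe positions are in mm9 as the files give them. Each slide held at most 4 arrays, and 0 pairs of arrays had identical values. The number of arrays limits the precision.

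Alternatives were an offset of 50, the processed signal less its 75th percentile, quantile normalization within tissue, the deposited values, the brightest probe, no filter and a stricter filter of 2 sets, each tissue alone, all 42 arrays with 14 group means, slide as a random block, replicate number as a block, the unadjusted threshold, and each array left out in turn. The leaving out of aortas with high muscle markers was chosen after the data were seen.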

Additional observations from a re-analysis of the deposited data

How the results depend on the processing

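For Gdpd3 and 1700020D05Rik no comparison of KK/Ay groups passed after adjustment under any alternative. With the unadjusted threshold of limma, Gdpd3 passed in B vs C, where 2.71% of all genes did. So did 1700020D05Rik in D vs C in aorta alone, where the share of all genes was not counted. These are single calls among many tests of the genes, so nothing is read from them. After adjustment the tissue difference of 1700020D05Rik in KK/Ay mice passed under every alternative, at -1.62 to -1.02. Small differences changed sign. In skeletal muscle alone C vs A was 0.042 for Gdpd3 and 0.019 for 1700020D05Rik, E vs C was 0.016 for Gdpd3, and F vs C was 0.062 for Gdpd3 and -0.0425 for 1700020D05Rik. In aorta alone D vs C was 0.028 for Gdpd3 and E vs C 0.20 for 1700020D05Rik, and E vs C of the latter was 0.0014 with the scaled processed signal. That scaling turned the tissue difference of Gdpd3 in KK/Ay mice to -0.40 (adjusted p = 0.0015), and quantile normalization within tissue made it 0.23 (adjusted p = 0.028). The medians over all genes were -0.06 and -0.04 there, against 0.03. The causes were not tested.

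Differences from healthy mice had no test. A minus healthy was 4.08, 5.99 and 5.97 for Gdpd3 with the offset of 50, the scaled processed signal and the deposited values, and 4.08 and 3.98 for 1700020D05Rik with the last 2 of these, 2.36 in aorta alone and 3.76 in muscle alone. The mean of the KK/Ay groups minus healthy was 3.94, 5.83 and 5.80 for Gdpd3, and 3.85, 3.75, 2.20 and 3.52 for 1700020D05Rik. Over all genes, A minus healthy had a median of 0.11 with the scaled signal.

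Counts of calls changed more. The share of all genes called is known only for the main fits. It was 4.5% in A vs G after adjustment, 22.1% without it, and 30.1% with all KK/Ay groups after adjustment. A changed count under another setting is therefore not read as a result about the listed genes. Among the 37 other genes of the pathway lists, A vs G had 1 call, but 0 with the scaled signal, quantile normalization within tissue, the deposited values, no filter, either tissue alone, the slide block and the replicate block, and 6 with all 42 arrays or without adjustment. With all KK/Ay groups the lists had 10 calls, and 3 in aorta alone. Neighbours of Gdpd3 had 2 calls in A vs G, 0 in aorta alone and 6 with all 42 arrays or without adjustment, and 11 against 7 without adjustment with all KK/Ay groups. Neighbours of 1700020D05Rik had 0 calls in A vs G, 1 with the offset of 50 and in muscle alone, 7 with all 42 arrays and 9 without adjustment, and with all KK/Ay groups 12, or 5 in aorta alone.

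Leaving out each array in turn gave C vs A from -0.087 to 0.020 for Gdpd3 and from -0.19 to -0.020 for 1700020D05Rik, B vs C from -0.44 to -0.24 and from -0.81 to -0.076, D vs C from -0.10 to 0.019 and from -0.38 to -0.18, E vs C from -0.21 to 0.059 and from -0.16 to 0.093, F vs C from -0.21 to -0.043 and from 0.012 to 0.15, aorta minus muscle in KK/Ay mice from 0.021 to 0.13 and from -1.47 to -1.24, and in healthy mice from -0.50 to -0.050 and from -0.15 to 0.23. In A vs G it left 0 to 1 calls in the pathway lists, 1 to 2 among neighbours of Gdpd3 and 0 to 1 among those of 1700020D05Rik.

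The replicate numbers of the groups share only a number: same-numbered arrays of compared groups correlated in their deviations from -0.54 to 0.60, above 0.1 in 9 of 36 pairs. With the replicate block B vs C was -0.37 for Gdpd3 (adjusted p = 0.9998) and the tissue difference of 1700020D05Rik -1.30 (adjusted p = 9e-07). The spots of the healthy mice, 29 to 146 units above background for both genes together, limit the precision of the differences from them.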
